A study of Mus musculus with 6 samples.

Results

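Ccdc136, Otop3, Gulo, Sall3 and Tbx2 are genes linked to cone photoreceptors that lie outside the light-sensing cascade itself. They were chosen by symbol, as the rows of the deposited table that carry these names, and are 5 of its 49997 genes. The study sequenced RNA from whole mouse retinas in 2 groups of 3 libraries, each library made from 1 retina of a male animal. The first group is labelled Samd7 knockout (-10A) and was collected at postnatal day 31, and the second is labelled c57Bl6/j wt and was collected at postnatal day 36. Age and genotype therefore cannot be told apart, and no other treatment is labelled. Whether each retina came from its own mouse is not labelled, and the p-values measure only the spread between these libraries, which may be technical.

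Samd7 encodes a sterile alpha motif protein of photoreceptors that works with Polycomb repressors. In the libraries labelled Samd7 KO its own transcript was higher, with 57837, 45755 and 44932 normalized reads against 6349, 8141 and 8122 in the wild type. This is a log2 fold change of 2.72 (limma adjusted p = 1.54e-08). A higher level is the opposite of a loss of the transcript. The labels do not give the altered bases, so the level does not check the label, and the group is called the libraries or retinas labelled Samd7 KO.

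A mouse retina holds mostly rods, with a small population of cones that carry a short-wavelength opsin (S opsin, Opn1sw), a middle-wavelength opsin (M opsin, Opn1mw) or both. Cones that favour S opsin are most common in the ventral mouse retina, and thyroid hormone receptor beta, a partner of Rxrg, is known to favour M opsin. Polycomb complexes hold genes of other cell types and states silent in rods. Among the 5 genes, Ccdc136 encodes a coiled-coil protein whose gene is the neighbour of Opn1sw. Otop3 belongs to the otopetrins, which are proton-conducting channels. Gulo encodes L-gulonolactone oxidase, the enzyme of the last step of vitamin C synthesis, which primates have lost. Sall3 and Tbx2 encode transcription factors. Sall3, a spalt-like zinc finger protein, is known for its roles in S-opsin cones and horizontal cells, and Tbx2, a T-box repressor, is known for its roles in dorsal eye patterning and, in fish, in ultraviolet cones. Whole-retina RNA does not show which cells a read came from, so the cone enrichment of the 5 genes was not tested in these libraries, and more cells of a type cannot be told apart from more RNA per cell.

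Promoter windows are shown for the member that passed the test described below, its neighbour Opn1sw and the only other member with a window. With 1 member that passed and 1 that did not, they describe letters only and cannot compare the 2 classes of genes. RefSeq promoter windows (GRCm38.p6) were given for 2 of the 5 members, and those of Gulo, Sall3 and Tbx2 are named only. The sequences stop at the annotated start, and bases in annotated exons are left out. The Ccdc136 window begins at 29396325 inside an annotated exon, so its printed part begins at 29396336. Capitals mark matches to TAATCC (the site of the photoreceptor factors Crx and Otx2), AGGTCA (the nuclear receptor half-site) and GGTGTGA (the T-box half-site), searched on both strands.
Ccdc136 at chr6:29396336-29396574, plus strand: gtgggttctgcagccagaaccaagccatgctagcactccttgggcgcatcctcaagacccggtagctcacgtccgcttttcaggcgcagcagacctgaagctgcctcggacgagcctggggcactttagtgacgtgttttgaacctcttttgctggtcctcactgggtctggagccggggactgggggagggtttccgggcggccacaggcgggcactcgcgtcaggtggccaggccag
Otop3 at chr11:115334481-115334730, plus strand: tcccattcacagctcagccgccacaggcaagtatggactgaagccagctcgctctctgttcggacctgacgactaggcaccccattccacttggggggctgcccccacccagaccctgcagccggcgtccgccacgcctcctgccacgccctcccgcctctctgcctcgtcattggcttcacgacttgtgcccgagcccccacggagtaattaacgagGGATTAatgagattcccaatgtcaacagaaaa
Opn1sw at chr6:29380514-29380763, minus strand: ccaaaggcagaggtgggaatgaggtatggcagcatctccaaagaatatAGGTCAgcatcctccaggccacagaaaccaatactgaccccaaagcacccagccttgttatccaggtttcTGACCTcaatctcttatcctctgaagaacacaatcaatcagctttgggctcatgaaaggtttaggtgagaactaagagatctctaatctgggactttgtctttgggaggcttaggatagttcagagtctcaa

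The Ccdc136 window held 0 matches to the 3 motifs, which says only that these letters are not in it. The window at its later start, chr6:29398676-29398925 (not printed), also held 0. The Otop3 window held 1 match to TAATCC, read here as its reverse complement GGATTA. The Opn1sw window held 2 matches to AGGTCA, one on each strand. Each window held matches to at most 1 of the motifs, so no matches overlapped. Of 32851 windows of 300 bases, 7.06% held TAATCC, 16.3% held AGGTCA and 3.98% held GGTGTGA. A match is a description of the letters, not a measured binding site.

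Of the 5 genes, Ccdc136 was the only one that passed the test between the groups, and it was 7.63-fold higher in the retinas labelled Samd7 KO. Otop3, Gulo and Sall3 were 1.24-fold, 1.25-fold and 1.22-fold as high and did not pass. Tbx2 was at 0.946 times the wild type level and did not pass. Values are normalized reads, the reads of a gene in a library divided by the library's DESeq2 size factor. The test was limma on log2(value + 1) across the 20277 genes with at least 10 normalized reads in at least 3 libraries, and a gene was called at a Benjamini-Hochberg adjusted p under 0.05. By this rule 12% of all tested genes were called, 6.79% higher and 5.21% lower. Among 5 genes, 1 call is too few to set a share against that background. The median log2 fold change of the members was 0.31, beside 0.00178 over all tested genes.

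**Figure D1:**
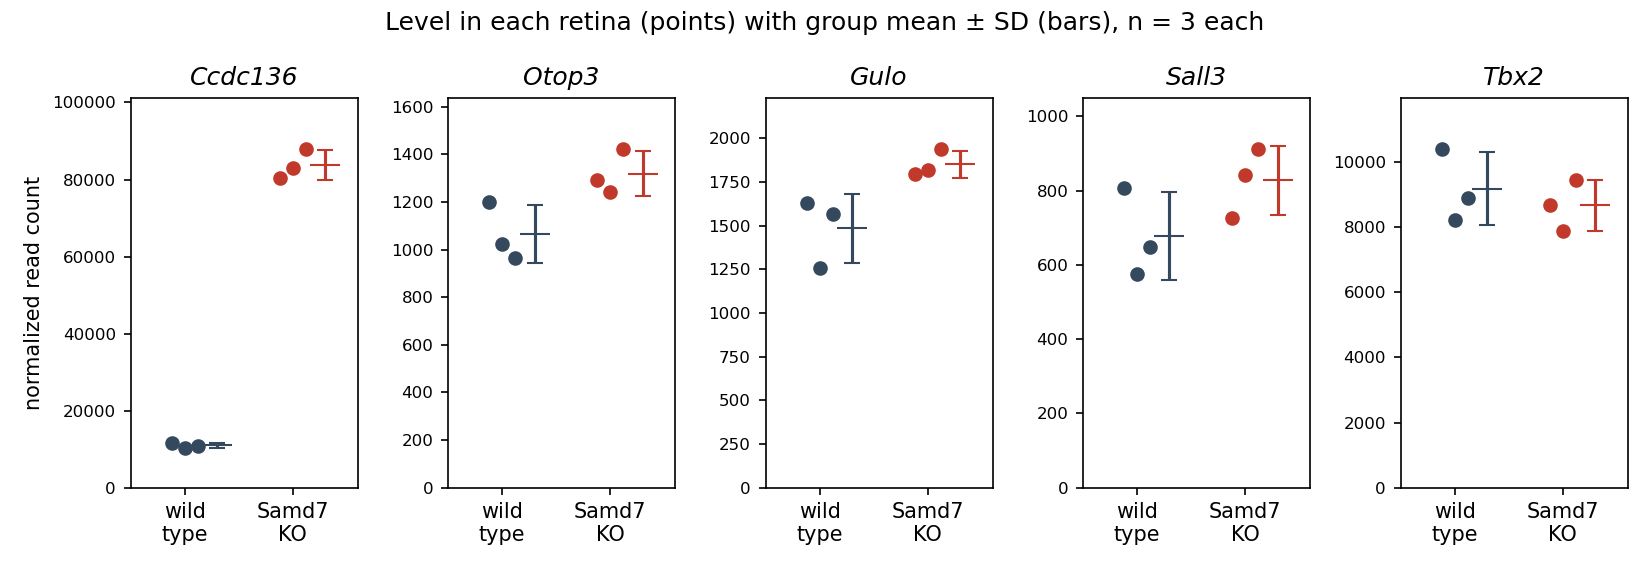
Normalized read counts (vertical axes from 0, linear, a separate scale for each gene) of each member in the 3 wild type libraries and the 3 labelled Samd7 KO; points are libraries in replicate order, and bars are group means ± SD. Ccdc136 separates by several fold, the groups of Otop3 and Gulo lie close without overlapping, and those of Sall3 and Tbx2 overlap.

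Ccdc136 (chromosome 6, 29396574 to 29426995, plus strand, GRCm38) had 11654, 10359 and 10933 normalized reads in the 3 wild type libraries. It had 80446, 83044 and 87967 in the 3 libraries labelled Samd7 KO. The lowest of the KO-labelled libraries lay far above the highest wild type library, so the groups did not overlap. The means were 83819 ± 3820 and 10982 ± 649 (SD, n = 3 in each group), and the log2 fold change was 2.93 (SE 0.07, 95% interval 2.79 to 3.08, limma adjusted p = 9.26e-11). Only 0.419% of tested genes had a larger fold change in either direction. Ccdc136 took 0.166% of all reads in the retinas labelled Samd7 KO and 0.0209% in the wild type.

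Otop3 (chromosome 11, 115334731 to 115346927, plus strand) had 1201, 1024 and 967 normalized reads in the wild type and 1291, 1243 and 1423 in the libraries labelled Samd7 KO. Every KO-labelled library was above every wild type library, although the highest wild type library came close to the lowest KO-labelled one. The means were 1319 ± 93.3 against 1064 ± 122 (SD, n = 3). The log2 fold change was 0.31 (95% interval 0.08 to 0.55), which did not pass the test (limma adjusted p = 0.0796).

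Gulo (chromosome 14, 65986786 to 66009254, minus strand) had 1626, 1257 and 1567 normalized reads in the wild type and 1798, 1816 and 1939 in the libraries labelled Samd7 KO. The groups again did not overlap, with the second wild type library the lowest. The means were 1851 ± 77.0 against 1483 ± 199 (SD, n = 3), and the log2 fold change of 0.33 (95% interval 0.10 to 0.56) did not pass (limma adjusted p = 0.0687). Gulo lay near the threshold: it was called by DESeq2 (log2 fold change 0.32, adjusted p = 0.0397) and in the authors' deposited table tested against a log2 fold change of 0 (adjusted p = 0.0399). Tested against a log2 fold change of 1, the authors' deposited table gave Gulo an adjusted p of 1. Against 0 the authors' deposited table did not call Otop3 (adjusted p = 0.0524). DESeq2 called 14.8% of the genes it tested (8.51% higher), and the authors' deposited table, against 0, called 14.3% (8.29% higher).

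Sall3 (chromosome 18, 80966989 to 80987021, minus strand) had the fewest reads of the 5. It had 808, 576 and 649 normalized reads in the wild type and 727, 842 and 912 in the libraries labelled Samd7 KO. The first wild type library lay above the first KO-labelled one, so the groups overlapped. The means were 827 ± 93.6 against 677 ± 119 (SD, n = 3), with a log2 fold change of 0.30 and a 95% interval from just under 0 to 0.59 (limma adjusted p = 0.193).

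Tbx2 (chromosome 11, 85832615 to 85841948, plus strand) had 10408, 8224 and 8902 normalized reads in the wild type and 8679, 7896 and 9460 in the libraries labelled Samd7 KO. The 2 groups overlapped over most of their range. The means were 8678 ± 782 against 9178 ± 1118 (SD, n = 3). The log2 fold change was -0.08 with a 95% interval of -0.29 to 0.13 (limma adjusted p = 0.656), so a change of the size seen in Ccdc136 lies outside what these libraries allow for Tbx2.

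**Figure D2:**
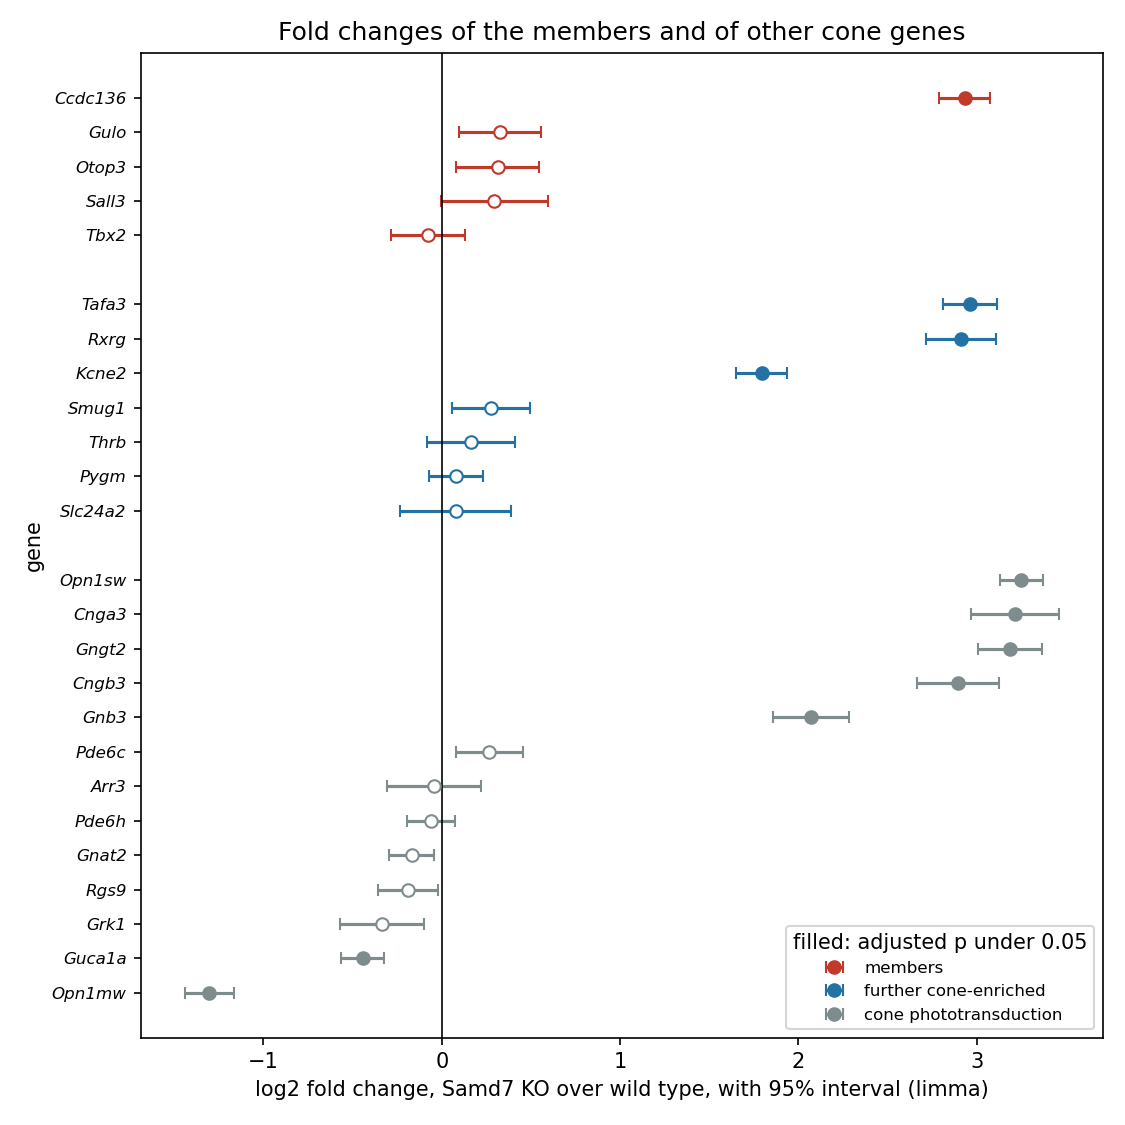
Log2 fold change (horizontal axis) of the 5 members, 7 further cone-enriched genes and 13 cone phototransduction genes, retinas labelled Samd7 KO over wild type; bars are 95% intervals from limma and filled points were called at adjusted p under 0.05. The interval of Ccdc136, 2.79 to 3.08, lies close to that of Opn1sw, 3.13 to 3.37, and the intervals of the other 4 members lie between -0.29 and 0.59.

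Groups did not overlap for 3 of the 5 members, and in all 3 the KO-labelled libraries were the higher ones. Across all tested genes 31.1% had non-overlapping groups, with the KO-labelled libraries higher in 15.9% of tested genes and lower in 15.2%. An unadjusted limma p under 0.05 was found for the same 3 members, Ccdc136, Otop3 and Gulo, and for 26.5% of all tested genes (14.5% higher). More of the members were called under other settings, some of which also called more of all genes. With limma-voom and sample quality weights, which called 22.9% of genes (12.8% higher), Otop3, Gulo and Sall3 were called along with Ccdc136. With libraries scaled to total reads, which called 13.9% (9.87% higher), Otop3 and Gulo were. Without the first wild type library Otop3 (log2 fold change 0.40, limma adjusted p = 0.0357) and Gulo (0.40, limma adjusted p = 0.0466) were called as well. That fit called fewer of all genes, 2171 (1327 higher), against 2432 (1376 higher) with all libraries.

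The libraries within a group also ranked alike across the 5 genes. The third KO-labelled library had the highest value of its group in 5 of 5 members, where 27.5% of all tested genes had their highest value. The first wild type library had the highest value of its group in 5 of 5, where 39.6% of tested genes had theirs. The second wild type library was the lowest for 4 of the 5, and the third for Otop3. These 2 high libraries were also the deepest of their groups, with 53068288 and 62813549 reads, and the part of depth in this order was not tested. The spread within the wild type, as a coefficient of variation, ran from 5.91% for Ccdc136 to 17.5% for Sall3. In the retinas labelled Samd7 KO it ran from 4.16% for Gulo to 11.3% for Sall3.

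To set the levels of the genes side by side, values were divided by the summed exon length of each gene (GENCODE M21). In the wild type Ccdc136 and Tbx2 stood at the same level, 2534 and 2531 normalized reads per kb, and their libraries overlapped. Below them came Gulo at 656, Otop3 at 439 and Sall3 at 90.5 normalized reads per kb, and none of these neighbours in the order overlapped. In the retinas labelled Samd7 KO Ccdc136 reached a level of 19340 normalized reads per kb, above Tbx2 at 2393, Gulo at 818, Otop3 at 544 and Sall3 at 111, with no overlap between neighbours. On the same scale Opn1sw had a level of 17092 in the wild type and 162837 in the retinas labelled Samd7 KO. The levels assume that all annotated exons are transcribed.

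Ratios within a library do not depend on how libraries are scaled, so the members were also set against cone genes measured in the same library. The references were the cone transducin subunit Gnat2 and the cone arrestin Arr3, both of which act in all cones, and for Ccdc136 also Opn1sw. Gnat2 itself was at 16282 ± 359 against 18305 ± 244 normalized reads (SD, n = 3) and did not pass the test (limma log2 fold change -0.17, adjusted p = 0.0866). Its groups did not overlap, and it was called lower with edgeR and upper-quartile factors (-0.20, adjusted p = 0.0381) and with limma-voom and quality weights (-0.17, adjusted p = 0.0163). Arr3 was at 26646 ± 5511 against 27128 ± 1955 (limma log2 fold change -0.04, adjusted p = 0.859). Ratios were compared by exact two-sided permutation tests. With 3 libraries against 3 the smallest p such a test can give is 0.1, so none of the 11 ratios could pass, and their adjusted p-values were 0.183 or more.

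For each read of Gnat2 there were 5.15 ± 0.244 reads of Ccdc136 in the retinas labelled Samd7 KO and 0.600 ± 0.0287 in the wild type (SD, n = 3), an 8.59-fold difference. The ratios of Otop3, Gulo and Sall3 to Gnat2 were 1.40-fold, 1.41-fold and 1.38-fold higher in the KO-labelled libraries, without overlap (exact permutation p = 0.1 for each). The mean of Gnat2 in those libraries was below that of the wild type, which enters all 3 ratios. Against Arr3 the same ratios were 1.28-fold, 1.29-fold and 1.27-fold higher and overlapped between the groups. The ratio of Tbx2 to Gnat2 was 0.534 ± 0.0558 against 0.501 ± 0.0545 and overlapped (exact permutation p = 0.5), and its ratio to Arr3 was 0.333 ± 0.0552 against 0.341 ± 0.0638, also overlapping (exact permutation p = 0.9).

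Ccdc136 and Opn1sw both rose, but not by the same factor. Opn1sw had 44532, 42218 and 44366 normalized reads in the wild type and 396591, 428922 and 423608 in the libraries labelled Samd7 KO, 9.53-fold higher. The ratio of Ccdc136 to Opn1sw was 0.262, 0.245 and 0.246 in the wild type and 0.203, 0.194 and 0.208 in the KO-labelled libraries. The groups of this ratio did not overlap, and the ratio was 0.802 times as large in the KO-labelled retinas (exact permutation p = 0.1, the smallest the design can give). M opsin moved the other way, with Opn1mw at 9619 ± 297 against 23757 ± 877 normalized reads (SD, n = 3), a log2 fold change of -1.30 (limma adjusted p = 5.64e-08).

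**Figure D3:**
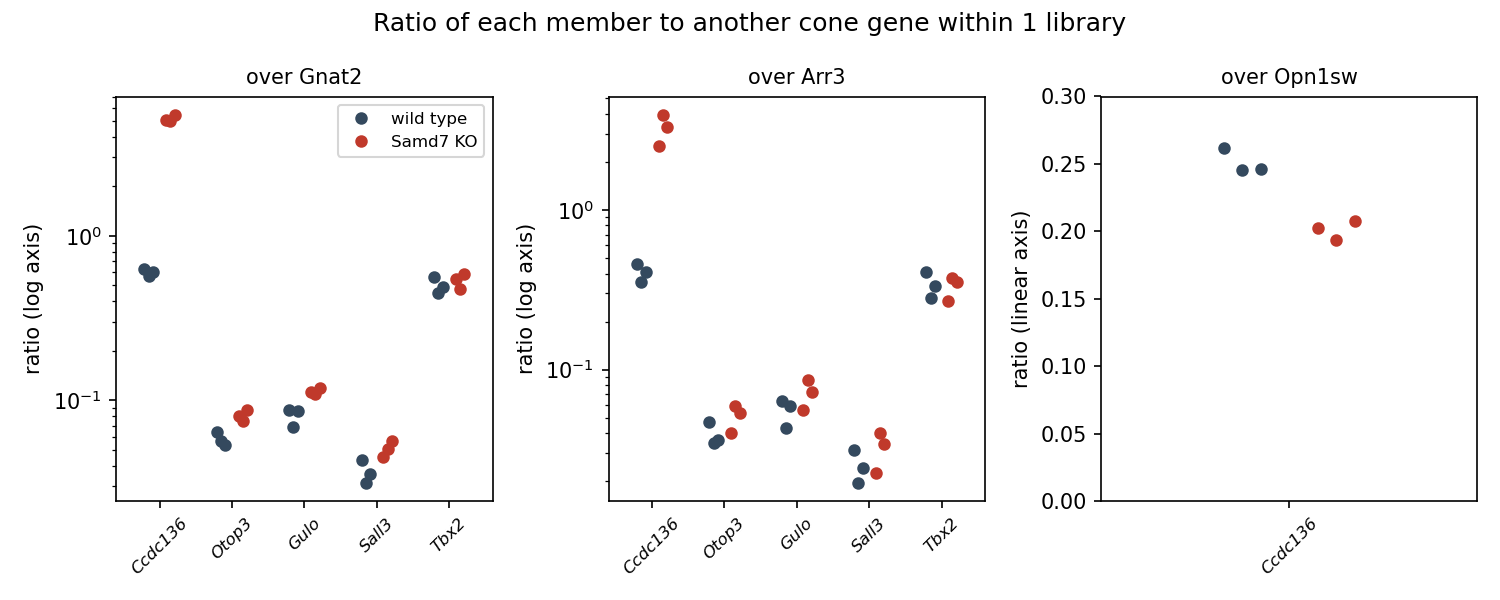
Ratio of each member's normalized reads to those of Gnat2 (left, log axis) and Arr3 (middle, log axis), and of Ccdc136 to Opn1sw (right, linear axis from 0), in each library; points are libraries, dark for wild type and red for those labelled Samd7 KO. The Ccdc136 to Gnat2 ratio moves from near 0.600 to near 5.15, while the Ccdc136 to Opn1sw ratio stays between 0.194 and 0.262.

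The 4 tested genes nearest to Ccdc136 were also called higher, and the next one, Atp6v1f, did not pass. Of the 4, n-TPagg6 had at least 10 normalized reads only in the KO-labelled libraries, so it was tested only because it was high there. Its values were 26.0, 20.7 and 35.6 in those libraries and 0, 3.25 and 1.88 in the wild type. The order along chromosome 6 is Calu, Opn1sw, the tRNA gene n-TPagg6, Ccdc136, Flnc, Atp6v1f. Opn1sw lies 16.061 kb away and is read from the opposite strand. Calu, which encodes the calcium-binding endoplasmic reticulum protein calumenin, lies 19.899 kb away. It had 15404, 17277 and 16013 normalized reads in the KO-labelled libraries against 6519, 6423 and 6699 in the wild type, 2.48-fold higher (limma log2 fold change 1.31, adjusted p = 1.15e-07). The ends of Calu and Opn1sw overlap in the annotation (29376671 to 29376675), and whether the counting used strand is not stated, so that reads in the overlap may belong to either gene.

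On the other side of Ccdc136, Flnc, which encodes the muscle actin cross-linker filamin C, lies 6.158 kb away. It was at 74.3 ± 2.89 against 32.7 ± 8.0 normalized reads (SD, n = 3), 2.27-fold higher (limma log2 fold change 1.19, adjusted p = 0.00729). The tRNA gene n-TPagg6, between Opn1sw and Ccdc136, had 80 reads over the 3 KO-labelled libraries and 5 over the wild type (limma log2 fold change 3.59, adjusted p = 0.00157). At so few reads the log2 fold change depends on the pseudocount, at 1.86 with a pseudocount of 8 and 4.05 with 0.5, and the gene was called with each. Atp6v1f, a subunit of the vacuolar proton pump 40.788 kb away, was at 6707 against 6721 normalized reads and did not pass (limma log2 fold change -0.01, adjusted p = 0.973).

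Among the nearest genes of the other 4 members, only Clu and Ephx2 near Gulo were called. For Otop3, none of its tested neighbours Fads6, Ush1g, Hid1, Cdr2l and Gm32013 was called, although Ush1g and Hid1 lie within 1 kb. Around Gulo, Clu, which encodes the secreted chaperone clusterin and lies 5.238 kb away, was at 75139 ± 6123 against 59535 ± 2714 normalized reads (SD, n = 3) and was called (limma log2 fold change 0.33, adjusted p = 0.00821). Ephx2, which encodes soluble epoxide hydrolase, was also called (limma log2 fold change 0.29, adjusted p = 0.0369), but lost the call in 8 of 18 alternatives, among them leaving out any library other than the first KO-labelled one (0.25 to 0.32, highest adjusted p = 0.159). Scara3, on the far side of Clu, did not pass (log2 fold change 0.02). The pseudogene Gm10233 did not pass either (log2 fold change -0.42, limma adjusted p = 0.304), although its groups did not overlap and the KO-labelled libraries were the lower ones. Clu is a gene of Müller glia. Of the other 8 markers of Müller glia 3 were called higher and 1 lower, and the 8 summed to 187947 to 200395 normalized reads in the KO-labelled libraries and 194027 to 219842 in the wild type. Their part in the Clu and Gulo values was not tested. No tested neighbour of Sall3 (Nfatc1, Atp9b, Gm27239) or of Tbx2 (Bcas3, 2610027K06Rik) was called by limma, although Atp9b had an unadjusted p under 0.05 (log2 fold change 0.19).

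In a wider window chosen after the values were seen, 500 kb to each side, 19 genes near Ccdc136 were tested, 6 called higher and 2 lower, with a median log2 fold change of 0.21. Across all tested genes 6.79% were called higher and 5.21% lower. The 6 genes called higher near Ccdc136 included Calu, Opn1sw, Flnc and n-TPagg6, the last tested only through its KO-labelled values. The others called higher were Irf5 (1.33, limma adjusted p = 5.78e-04), an interferon regulatory factor of immune cells, and Ahcyl2 (0.41, limma adjusted p = 0.0193). Of 10 microglia markers 8 were also called higher, and the part of immune cells in the Irf5 value was not tested. The genes called lower near Ccdc136 were Fam71f2 (-0.94) and Impdh1 (-0.26), the retinal enzyme of guanine nucleotide synthesis. Of 36 tested genes near Otop3, Grin2c, which encodes a glutamate receptor subunit, was called higher (limma log2 fold change 2.35, adjusted p = 4.60e-07) and Llgl2 lower (-0.49). Of 12 near Gulo 3 were called higher and 0 lower. The 3 were Clu, Ephx2 and Trim35 (0.55, limma adjusted p = 0.00118). Of 4 near Sall3 and 7 near Tbx2 none was called.

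**Figure D4:**
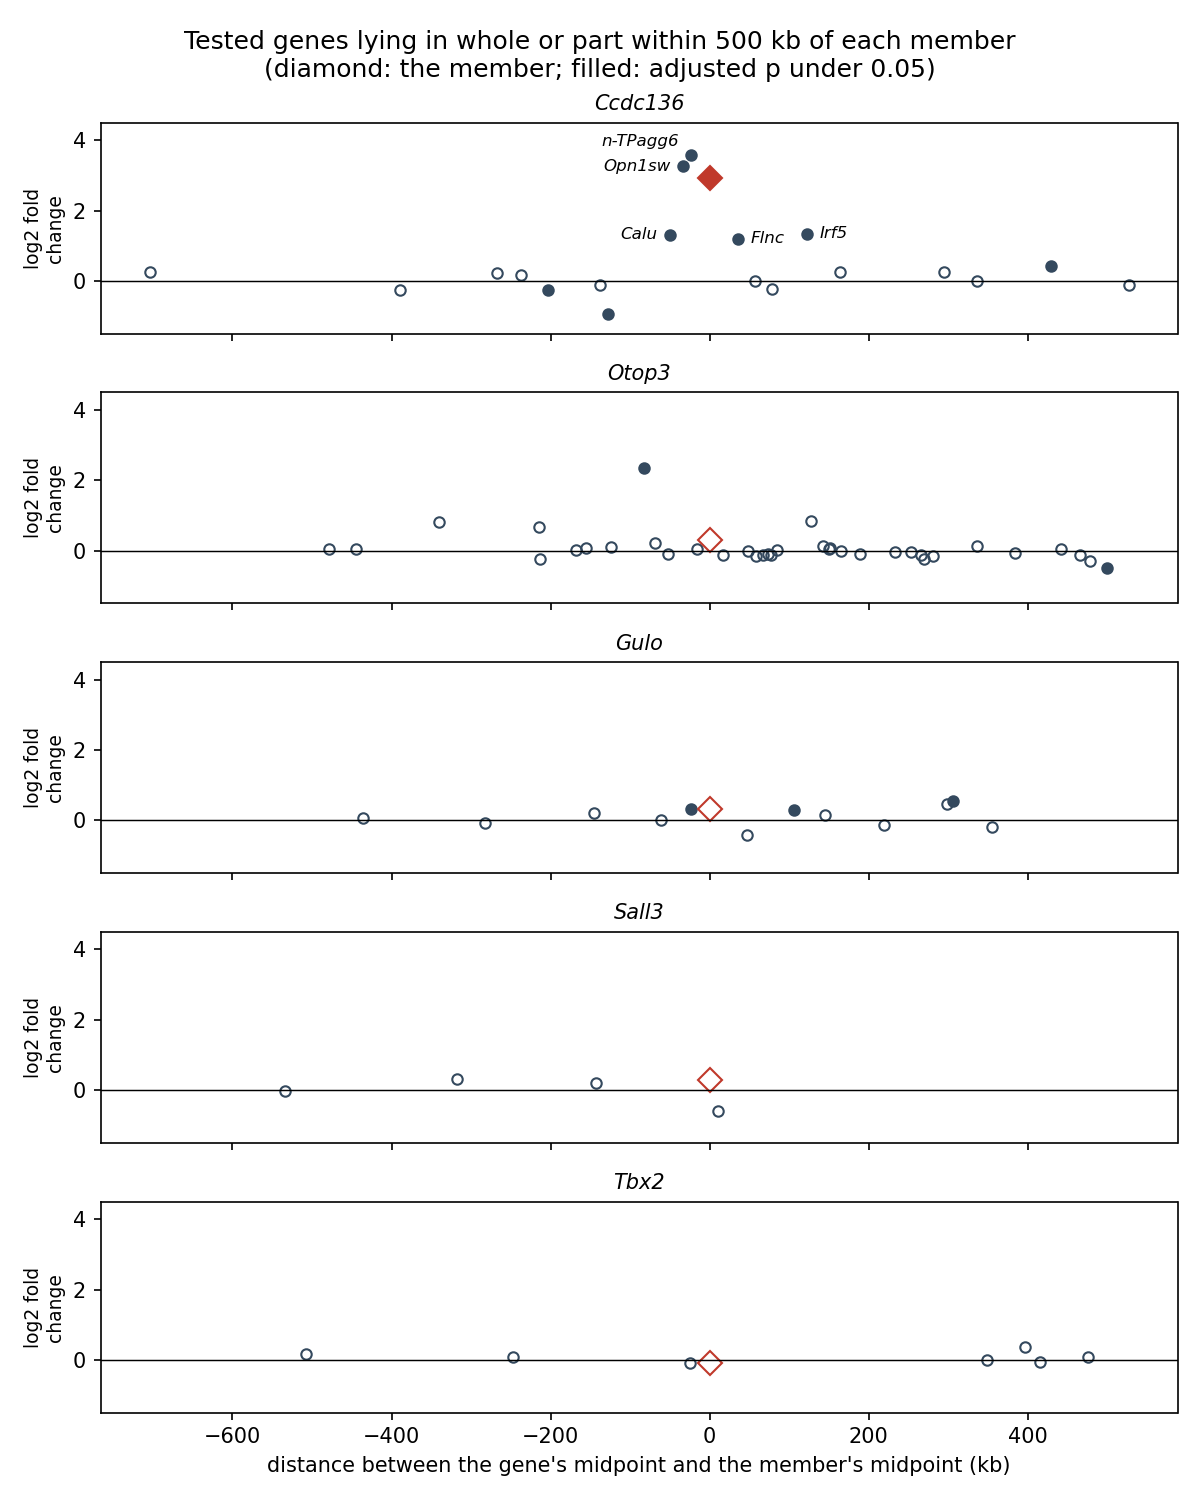
Log2 fold change (vertical axis) of each tested gene lying in whole or part within 500 kb of a member, against the distance in kb between the midpoints of the gene and the member; filled points passed the test and diamonds are the members. Of the 19 tested genes near Ccdc136 6 were called higher (0.41 to 3.59) and 2 lower (-0.94 and -0.26), beside 6.79% and 5.21% of all tested genes. The highest near Ccdc136, n-TPagg6, was tested only through its KO-labelled values. Near Otop3 Grin2c lies at 2.35 and Llgl2 at -0.49 among 36 genes.

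Genes whose pattern over the 6 libraries was most like that of each member were found by the Euclidean distance between profiles of log2(value + 1) centred on their means, over all tested genes other than predicted models. For Ccdc136 the nearest were Tafa3, a secreted chemokine-like protein, at a distance of 0.0656, Rxrg, the retinoid X receptor gamma of cones, at 0.161, and Tceanc2, which carries a transcription elongation factor domain, at 0.271. The search picks like profiles, so the like fold changes of these genes follow from it and are no separate result. Tafa3 was at 32153 ± 1121 against 4125 ± 280 normalized reads (SD, n = 3), 7.80-fold higher. Rxrg was at 7321 ± 161 against 976 ± 106, 7.5-fold higher, and Tceanc2 was 7.77-fold higher. For Otop3 the nearest were Synpo (0.0798), Arhgef40 (0.0830) and Ascc2 (0.0843). Gulo was nearest to Myh9 (0.0853), Rbm6-ps1 (0.0887) and Cul7 (0.10), Sall3 to Pkd1 (0.0937), Oma1 (0.0973) and Kcnd2 (0.102), and Tbx2 to Wdr91 (0.0586), Gga3 (0.0624) and L3mbtl2 (0.0804).

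Other genes known to be enriched in cones but outside phototransduction were also mixed. Of 9 such genes 7 were tested, 3 were called higher and 0 lower, with a median log2 fold change of 0.28. Across all tested genes 6.79% were called higher and 5.21% lower. This list and those that follow were chosen with earlier results of these data known, so their counts are description only. Tafa3 and Rxrg are also the nearest profiles to Ccdc136 named above. The listed genes that were called were Tafa3, Rxrg and the potassium channel subunit Kcne2. Kcne2 was at 16766 ± 265 against 4836 ± 220 normalized reads (SD, n = 3), 3.47-fold higher. The base excision repair enzyme Smug1 (log2 fold change 0.28), the thyroid hormone receptor Thrb (0.17), the muscle glycogen phosphorylase Pygm (0.08) and the cone sodium, calcium and potassium exchanger Slc24a2 (0.08) did not pass. Smug1 was called in 3 of 18 alternatives, among them without the second KO-labelled library (0.40, limma adjusted p = 0.00395). Clca3a1 and Clca3a2 were under the limit on low values. Of 13 cone phototransduction genes 5 were called higher and 2 lower, with a median of -0.04. The higher ones were Opn1sw, the channel subunits Cnga3 (log2 fold change 3.21) and Cngb3 (2.90) and the transducin subunits Gngt2 (3.19) and Gnb3 (2.07), and the lower ones Opn1mw and the guanylate cyclase activator Guca1a (-0.44). Guca1a, like Grk1 and Rgs9 of the same list, is not particular to cones. The part of rods in the values and median of this list was not tested.

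Calls in the members' families stand beside 12% of all tested genes called. These families are too small to set a share against that. Of the otopetrins Otop3 alone was tested, since Otop1 had 30 reads over the KO-labelled libraries and 28 over the wild type, and Otop2, 2.425 kb from Otop3, had 18 and 11. Among the spalt-like genes Sall1 was called, with 67.7, 60.1 and 75.1 normalized reads in the KO-labelled libraries and 26.5, 30.3 and 33.9 in the wild type. The groups did not overlap, and Sall1 was 2.24-fold higher (limma log2 fold change 1.14, adjusted p = 0.00664) on 196 and 95 reads. Sall1 is expressed by microglia, and 8 of the 10 microglia markers were called higher, with a summed level of 6839 to 7577 normalized reads in the KO-labelled libraries and 4648 to 5152 in the wild type. The part of microglia in the Sall1 value was not tested. Sall2 was at 1989 ± 52.7 against 2077 ± 143 (SD, n = 3) and did not pass, and Sall4 had 4 and 17 reads.

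Of 17 T-box genes 11 were tested and 0 were called by limma, beside 12% of all tested genes. The median log2 fold change of these 11 was -0.02, and 1 of them, Tbx5 (-0.43, limma adjusted p = 0.181), had an unadjusted p under 0.05. DESeq2 and edgeR also called 0 of the 11, and limma-voom with quality weights called Tbx5. Tbx3, the closest relative of Tbx2, was at 570 ± 63.4 against 555 ± 33.6 normalized reads (SD, n = 3), a log2 fold change of 0.03 (limma adjusted p = 0.898). Of 19 factors of cone subtype and dorsoventral patterning, 2 were called higher and 1 lower, with a median of 0.21. Rxrg and the proneural factor Neurod1 (0.28, limma adjusted p = 0.00849; 0.0611 without the third wild type library) were the higher ones. Vax2, the ventral homeobox factor of the eye, was lower at 4420 ± 207 against 5831 ± 182 normalized reads (SD, n = 3), a log2 fold change of -0.40 (limma adjusted p = 0.00307).

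Around Gulo, the 12 genes of vitamin C synthesis and transport gave 10 that were tested, 1 called higher and 2 lower, with a median log2 fold change of 0.07. Ugdh, which makes the UDP-glucuronate that feeds the pathway, was at 3279 ± 132 against 2610 ± 147 normalized reads (SD, n = 3), 1.26-fold higher (limma adjusted p = 0.0182). Ugdh lost this call in 5 of 18 alternatives, among them without the third KO-labelled library and without wild type library 1 or 3 (highest adjusted p = 0.0856). The phosphoglucomutase Pgm1 was at 7135 ± 260 against 9128 ± 591, a log2 fold change of -0.35 (limma adjusted p = 0.00715). Slc2a1, the transporter of glucose and oxidized vitamin C, was at 18320 ± 800 against 25396 ± 2355, a log2 fold change of -0.47 (limma adjusted p = 0.00139). Akr1a1, which makes the gulonate that precedes Gulo's substrate, did not pass (-0.14), nor did the vitamin C carrier Slc23a2 (0.25), which was called without the first KO-labelled library (0.35, limma adjusted p = 0.0275). Rgn, the enzyme just before Gulo, and Slc23a3 were under the limit on low values.

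Markers of other cells in the tissue moved in both directions beside these values. Of 15 rod genes 12 were called lower and 0 higher, and their summed level was 3157130 to 3369750 normalized reads in the KO-labelled libraries and 5187140 to 5575030 in the wild type. Horizontal cell markers, which bear on Sall3, gave 0 calls of 9 by limma, DESeq2, edgeR and voom (2 had an unadjusted limma p under 0.05) and summed to 40664 to 42697 against 42429 to 43065. Of 12 bipolar cell markers 1 was called higher and 1 lower, and they summed to 71135.5 to 74712 against 64528 to 66815. Of 9 amacrine cell markers 1 was called lower and 0 higher, and of 7 ganglion cell markers 0 were called. Of 10 retinal pigment epithelium markers 8 were lower (1293 to 2385 against 3999 to 6401), and 5 of 5 red blood cell markers were higher (5661 to 8293 against 1467 to 2232). The third wild type library stood apart in lens markers, at 7213 normalized reads against 91.2 to 168 in the other 5 libraries. Without that library the limma log2 fold changes were 2.93 for Ccdc136, 0.25 for Otop3, 0.37 for Gulo, 0.27 for Sall3 and -0.10 for Tbx2, and only Ccdc136 was called. The part of the other cell types in the members' values was not tested.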

How the data were processed

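RNA from 6 whole mouse retinas was copied to cDNA with a polyA-primed kit and 15 amplification cycles, and no molecular identifiers are described. The submitters' processing notes list STAR 2.7.3a, cutadapt 3.0, SAMtools 1.9, HTSeq 0.12.4, DRAGEN and DESeq2, and the builds mm10 and GRCm38. The notes as available here give no role for each tool and no strand setting for the counting. The deposited table holds, for 49997 genes, a signal per library that is the read count divided by a DESeq2 size factor, and the authors' own log2 fold changes, test scores (Wald statistics) and p-values. Whole reads were recovered for 100% of 166478 values above 0, within 0.01 reads. Libraries held 44231112 to 62813549 reads, and the members 532 to 91412 reads per library.

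Normalized reads were tested with limma 3.58.1 (R 4.3.3) on log2(value + 1) with a mean trend in the variance, on genes with at least 10 in 3 libraries, two-sided, with Benjamini-Hochberg adjustment; this called 2432 of 20277 genes. edgeR 4.0.16 (quasi-likelihood, TMM) on the recovered reads called 2494. Ratios used exact permutation tests over libraries. Fold changes on the log2(value + 1) scale understate those of low genes. Alternatives were DESeq2 1.42.0, limma-voom with quality weights, other scalings, pseudocounts of 0.5 and 8, other filters, adjusted p under 0.01, blocking on replicate number and leave-one-out fits. The members and gene lists were chosen with earlier results of these data known. Named genes were the 5 members, their 3 nearest RefSeq genes on each side, their families, called genes of the vitamin C, T-box and factor lists with Tbx3 and the vitamin C carriers, up to 4 genes of other lists by adjusted p, the reference cone genes and the 3 nearest profiles. Nearest genes not named in the text were under the limit on low values. Outside this rule, Akr1a1, Rgn, Tbx5, Gnb3, Guca1a, Grk1, Rgs9, Irf5, Ahcyl2, Impdh1, Fam71f2, Grin2c, Llgl2 and Trim35 were picked after their values were seen. So were the further cone-enriched genes beyond the first 4.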

Additional observations from a re-analysis of the deposited data

How the results depend on the processing

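Ccdc136 stayed called and higher in 18 of 18 alternatives (log2 fold change 2.89 to 2.99). The calls of the other members turned on the setting. Otop3 was called with limma-voom and sample quality weights (0.43, adjusted p = 0.00338), with scaling to total reads (0.37, 0.0304) and without wild type replicate 1 (0.40, 0.0357); leaving out 1 library gave 0.25 to 0.40, and adjusted p ran from 0.00338 to 0.307. Gulo was called by DESeq2 (0.32, 0.0397), with voom (0.33, 0.0133), total reads (0.38, 0.0252) and without wild type replicate 1 (0.40, 0.0466); leaving out 1 library gave 0.21 to 0.40, and adjusted p ran from 0.0133 to 0.258. Sall3 was called with voom (0.39, 0.0214), with 0.19 to 0.43 on leaving out 1 library and adjusted p from 0.0214 to 0.517. Tbx2 was never called, and its sign turned with voom (0.0123) and without wild type replicate 1 (0.0165); leaving out 1 library gave -0.15 to 0.0165.

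The count of called genes, 2432, became 4650 with voom, 1189 at adjusted p under 0.01 and 1624 with a replicate block, and 1313 (without wild type replicate 3) to 3247 (without Samd7 KO replicate 1) on leaving out 1 library, with 1497 without Samd7 KO replicate 3 and 1470 without wild type replicate 2. With total reads 71.2% of 2813 calls were higher, against 56.6%, and the median of all tested genes moved to 0.058. The replicate numbers did not pair the libraries (correlations of deviations -0.18, -0.13 and -0.01, and no library was closest to its own number); the block gave adjusted p = 0.160 for Otop3 and 0.113 for Gulo. Signs also turned for Arr3 (0.0127 with total reads; -0.190 to 0.113 on leaving out 1 library), Atp6v1f (0.00560 with voom, 0.0514 with total reads; -0.0558 to 0.0534), Slc24a2 (-0.0972 to 0.194), Tbx3 (-0.0178 to 0.128) and the log2 ratio of Tbx2 to Arr3 (-0.166 to 0.110). Of 18 alternatives Ephx2 lost its call in 8, Ugdh in 5 and Neurod1 in 1 (without wild type replicate 3, adjusted p = 0.0611), while Smug1 was called in 3 and Slc23a2 and Gnat2 in 2 each. The n-TPagg6 value ran from 1.86 (pseudocount 8) to 4.09 (DESeq2), and a filter of 50 left it out. The causes were not tested.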
